A study of Rattus norvegicus with 2 samples.

Results

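Integrins are paired cell surface receptors, each made of an alpha and a beta subunit, through which cells hold on to one another and to the extracellular matrix. The genes described here are 8 subunits chosen by name: the leukocyte subunits Itgam, Itgal, Itgb2, Itga4 and Itgb7, the widely used partner Itgb1, and the matrix subunits Itgav and Itgb5. Of these, 7 were gene columns of both tables, among 25 integrin subunit genes and 22154 genes in all. Itgam, the alpha subunit of Mac-1, was not analysed here.

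The cells came from the zygomatic maxillary suture, a fibrous seam of the facial skeleton where upper jaw meets cheek bone, of rats aged 4 weeks, and were freed by crushing the tissue. In the distraction group, a spring of nickel-titanium wire bent as a W pulled on the suture for 7 days. In the sham group skin was opened, chewing muscle was parted and holes were drilled in the same way, but no spring was set. Each group was 1 single-cell library, and how many animals it came from is not stated, so no test between the groups is possible. All intervals below are 95% and cover counting error only. The libraries held 4889 distraction cells with 32078960 UMIs (unique molecular identifiers, counts of captured mRNA molecules) and 5351 sham cells with 29924342 UMIs. Filtering left 4037 and 5183 cells, distraction and sham, at median depths of 4161 and 3033 UMIs. The lowest deposited cell had 125 UMIs in the distraction table and 920 in the sham table. A total of 22 cell barcodes occurred in both libraries.

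Cells were sorted into classes by marker genes that included no integrin. The classes held 3660 of the distraction cells and 4620 of the sham cells, most of them B-like, neutrophil-like, monocyte-like and erythroid-like, as in bone marrow. Stromal-like cells, the fibroblast-like, osteoblast-like and mural-like classes together, numbered 72 and 49, distraction and sham. A level is the gene's UMIs per 1e+06 UMIs of the class, written CPM, given for classes of at least 30 cells in both libraries. A ratio is the distraction level over the sham level, given for classes of at least 50 cells in both. Smaller classes are described by UMIs and cells. The stromal-like group falls 1 sham cell short and is given with a ratio as an exception.

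As background, beta 2 integrins are leukocyte receptors. Itgb2 pairs with Itgal to form LFA-1, which binds ICAM proteins on other cells. Itga4 pairs with Itgb1 to form VLA-4, which binds Vcam1 and fibronectin and holds blood cell precursors in the marrow, or with Itgb7 to form a receptor for the gut vessel protein Madcam1. Itgb1 also pairs with many other alpha subunits that bind collagen, laminin and fibronectin. Itgav pairs with Itgb5 to bind vitronectin and with Itgb1 to bind fibronectin. Integrins are switched to the binding state by talin (Tln1) and kindlins (Fermt3 in blood cells, Fermt2 elsewhere), which attach to the tail of the beta subunit.

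The stretches before the annotated starts of Itgb1 and Itga4 are shown because these genes encode the VLA-4 pair and were read at different levels. In every class of at least 30 cells except the last 3 neutrophil stages, Itgb1 reached 50 CPM in at least 1 library. Itga4 reached it in no class of at least 30 cells. Both are RefSeq sequences on build GRCr8, plus strand, 250 bases long and printed 5′ to 3′. Capitals mark GGGCGG, the GC box, and GGAA, the core of ETS family sites, on either strand, and no match of one overlapped a match of the other. The Itgb1 stretch lies at chr19:73602027-73602276 and the Itga4 stretch at chr3:84569765-84570014.
Itgb1: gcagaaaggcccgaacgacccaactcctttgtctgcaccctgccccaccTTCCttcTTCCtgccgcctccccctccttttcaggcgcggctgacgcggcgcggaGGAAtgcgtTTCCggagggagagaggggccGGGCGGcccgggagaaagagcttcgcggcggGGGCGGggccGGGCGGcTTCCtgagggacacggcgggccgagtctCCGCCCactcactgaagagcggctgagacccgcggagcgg
Itga4: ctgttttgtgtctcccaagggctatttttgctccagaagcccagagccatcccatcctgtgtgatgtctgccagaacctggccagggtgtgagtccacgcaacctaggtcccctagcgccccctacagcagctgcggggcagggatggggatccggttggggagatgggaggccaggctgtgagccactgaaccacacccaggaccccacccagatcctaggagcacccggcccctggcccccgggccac
The Itgb1 stretch holds GGGCGG 4 times, GGAA 5 times and 28 CpG dinucleotides, with 71.2% G or C. The Itga4 stretch holds neither motif in these 250 bases, 6 CpG dinucleotides and 64.4% G or C. Among 33469 promoter stretches of the same length, 30.5% hold GGGCGG and 93.2% hold GGAA, the median G or C content is 51.2% and the median number of CpG is 5. These matches describe the letters and were not tied to any binding. Of the 8 members, 6 had a promoter entry.

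**Figure D1:**
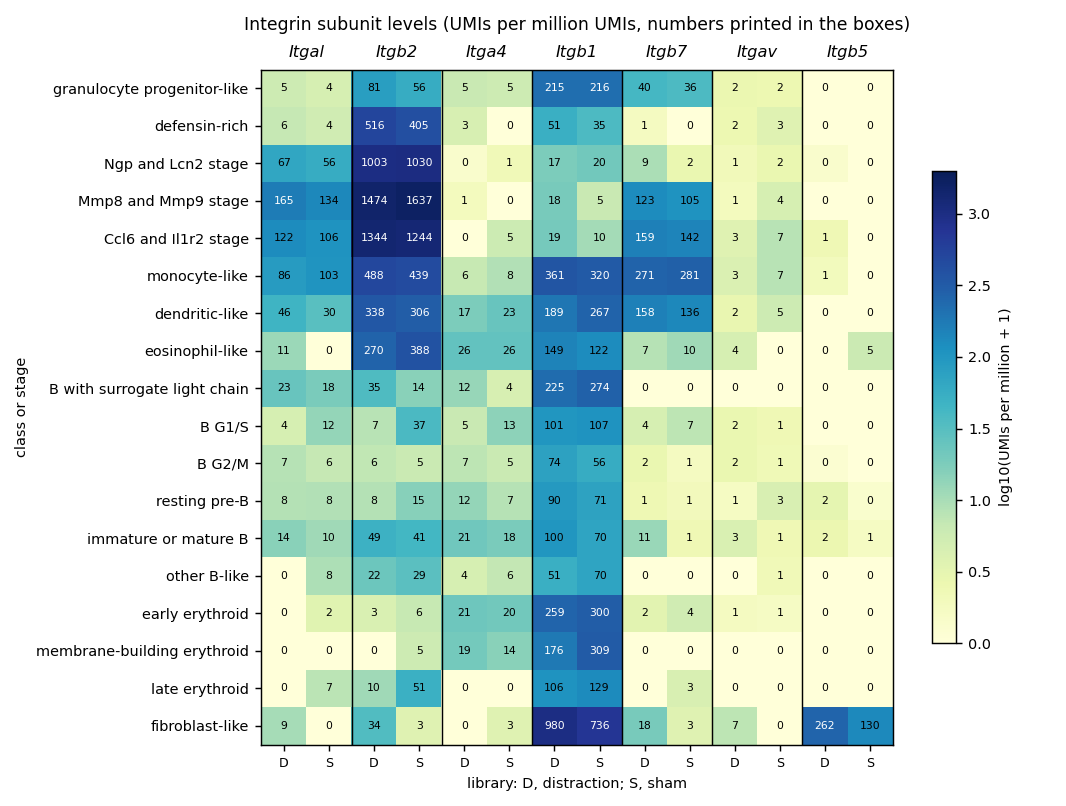
Level of each of the 7 subunits (columns, with distraction D left of sham S) in CPM in each class of at least 30 cells (rows); colour is log10(level + 1). Itgb2 is high in neutrophil-like and monocyte-like rows, and Itgal in the monocyte-like row and the neutrophil rows from the Ngp and Lcn2 stage on. Itgb1 is high in nearly all rows outside the later neutrophil stages, and Itgb5 in the fibroblast-like row, at 262 and 130 CPM.

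Itgb2, the common beta subunit of the leukocyte integrins, was highest in the later neutrophil stages and was higher at each step from progenitor to the Mmp8 and Mmp9 stage. Stages are ordered here by textbook marker genes. In granulocyte progenitor-like cells it stood at 80.6 CPM in 144 distraction cells (339 UMIs) and 56.1 CPM in 97 sham cells (109 UMIs). The defensin-rich stage, where granules are being filled, had 516 and 405 CPM, distraction and sham. The Ngp and Lcn2 stage had 1003 CPM in distraction cells and 1029.7 in sham cells, and the intervals of the libraries overlap there. The Mmp8 and Mmp9 stage held the highest level of any class of at least 30 cells, 1474 CPM in distraction cells (interval 1404 to 1546) and 1637 in sham cells (1532 to 1748). In the Ccl6 and Il1r2 stage, the most mature cells, the level was 1344 in distraction cells (1263 to 1429) and 1244 in sham cells (1139 to 1356). The intervals of these last 2 stages overlap in the distraction library and lie apart in the sham library. At matched depth, with each cell thinned to 2000 UMIs, 91.6% of distraction cells and 92.2% of sham cells of the Mmp8 and Mmp9 stage held an Itgb2 UMI, against 17.0% and 14.3% of progenitor-like cells.

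**Figure D2:**
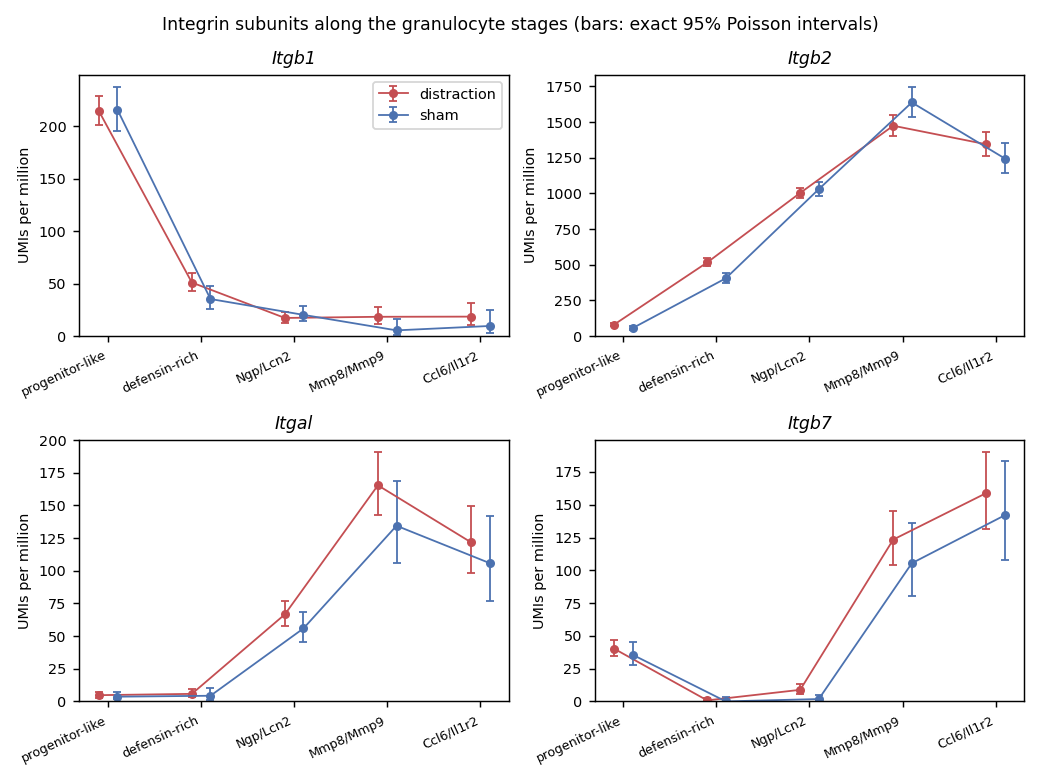
Levels of Itgb1, Itgb2, Itgal and Itgb7 in CPM over 5 granulocyte stages, distraction and sham (points, with exact 95% Poisson intervals as bars). Itgb1 is highest in the progenitor-like cells, at 215 and 216 CPM, while Itgb2, Itgal and Itgb7 are highest in the last 2 stages.

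Itgal, the LFA-1 alpha subunit, was sparse until the Ngp and Lcn2 stage of the same course. It had 20 UMIs in distraction progenitor-like cells and 7 in sham ones, and was at 5.76 and 4.31 CPM in defensin-rich cells. It was at 66.6 and 55.9 CPM in the Ngp and Lcn2 stage, distraction and sham. The Mmp8 and Mmp9 stage had 165 CPM in distraction cells (189 UMIs, interval 143 to 191) and 134 in sham cells (74 UMIs, 106 to 169), and the Ccl6 and Il1r2 stage 122 and 106. The intervals of these last 2 stages overlap within each library.

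Monocyte-like cells carried both LFA-1 subunits. Itgb2 was at 488 CPM in 220 distraction cells and 439 in 201 sham cells, and Itgal at 86.3 and 103 CPM. Dendritic-like cells had Itgb2 at 338 and 306 CPM and Itgal at 45.8 and 29.9, distraction and sham. Eosinophil-like cells had Itgb2 at 270 CPM in distraction cells (74 UMIs in 41 cells) and 388 in sham cells (76 UMIs in 46 cells), with 3 Itgal UMIs in the distraction cells and none in the sham cells. The intervals of the dendritic-like and eosinophil-like levels of Itgb2 overlap within each library. Among the small classes, 26 distraction macrophage-like cells held 109 Itgb2 and 23 Itgal UMIs, and 17 sham ones held 80 and 12. The 23 mast or basophil-like cells of the distraction library held 69 Itgb2 UMIs, and the 18 of the sham library held 63.

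Outside myeloid cells the leukocyte subunits were sparse. Early erythroid cells were taken as a reference for free RNA in the suspension, an assumption that was not tested. In them the summed UMIs of 20 neutrophil and monocyte markers stood at 789 CPM (distraction) and 664 CPM (sham). In resting pre-B cells these markers stood at 1247 and 987 CPM. An Itgb2 UMI was held by 3.11% of early erythroid distraction cells (median depth 4215 UMIs) and 3.61% of sham cells (4324.5). Resting pre-B cells, at 2.01% and 2.63%, were shallower (median depths 2394.5 and 2253). After thinning, Itgb2 was found in 1.53% and 2.55% of them, against 1.30% and 0.714% of early erythroid cells, with intervals that overlap in each library. Their levels were 7.71 CPM (3.85 to 13.8) and 14.5 CPM (10.5 to 19.6), against 3.21 (1.38 to 6.32) and 5.59 (2.55 to 10.6) in early erythroid cells. These intervals overlap in each library, in the sham library only at their edges. Overlap alone does not decide whether resting pre-B cells read above this reference, and no ratio between classes was taken. Immature or mature B cells lay above the early erythroid levels, at 49.2 (distraction) and 41.4 CPM (sham). They held Itgb2 in 10.5% and 9.80% of cells, at median depths of 2517 and 2507 UMIs. Late erythroid cells stood at 10.3 and 50.8 CPM, from 4 and 15 UMIs, with 80.0% of the sham UMIs in 1 cell. Itgb2 was also at 20 CPM or more in at least 1 library in B cells with the surrogate light chain (34.7 and 14.0, from 6 and 4 UMIs), B cells in G1/S (7.19 and 37.4, from 4 and 28 UMIs) and the other B-like cells (6 and 24 UMIs, the sham level being 29.1 CPM). Itgal reached 23.1 and 17.5 CPM in B cells with the surrogate light chain, from 4 and 5 UMIs. In fibroblast-like cells Itgb2 had 26 UMIs in 6 of 60 distraction cells, with 61.5% of them in 1 cell, and 1 UMI in 31 sham cells. Summed UMIs of 20 neutrophil and monocyte markers in those fibroblast-like cells stood at 1154 CPM (distraction) and 752 CPM (sham), with a median of 10 and 6 UMIs per cell; their part in the Itgb2 reading was not tested.

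Cells with an Itgal UMI were also read for Itgb2, beside its share among all cells of the class. In the Mmp8 and Mmp9 stage 128 of 129 Itgal-positive distraction cells and 52 of 54 sham cells held it, where 96.8% and 94.2% of all cells did. In monocyte-like cells it was 121 of 125 and 122 of 124, where 95% and 89.6% of all cells held it. In dendritic-like cells it was 13 of 17 and 6 of 8, where 66.1% and 55.2% of all cells held it. Cells with both made up 40.5% of distraction cells and 30.4% of sham cells at the Mmp8 and Mmp9 stage. In the cells deep enough to be thinned to 2000 UMIs, the shares were 24.7% (73 of 296) and 22.7% (35 of 154). Among B cells in G2/M, 5 of 29 Itgal-positive distraction cells and 3 of 42 sham cells also held Itgb2, where 5.44% and 4.85% of all cells did.

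Itgb1 ran the opposite way along the granulocyte course. In progenitor-like cells it stood at 215 CPM (902 UMIs, distraction) and 216 CPM (419 UMIs, sham). It was at 51.0 and 35.3 CPM in defensin-rich cells, at 17.3 and 20.2 in the Ngp and Lcn2 stage, at 18.4 and 5.45 in the Mmp8 and Mmp9 stage and at 18.5 and 9.63 in the Ccl6 and Il1r2 stage. In the Ccl6 and Il1r2 stage 92.9% of the 14 distraction UMIs came from 1 cell. Monocyte-like cells held Itgb1 at 361 and 320 CPM, dendritic-like cells at 189 and 267, and eosinophil-like cells at 149 and 122, distraction and sham.

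In B-like cells Itgb1 was highest where the surrogate light chain genes Igll1 and Vpreb1, parts of the pre-B receptor, were on. The level there was 225 CPM in 38 distraction cells (39 UMIs) and 274 in 72 sham cells (78 UMIs). Cycling cells had 101 and 107 CPM in G1/S and 73.7 and 56.5 in G2/M, and the intervals of the surrogate light chain group lie above those of both cycling groups in each library. Resting pre-B cells had 90.4 and 71.3 CPM, immature or mature B cells 100 and 69.9 and the other B-like cells 51.3 and 70.3, distraction and sham.

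In erythroid-like cells Itgb1 was high in the early stage, at 259 CPM in 257 distraction cells (645 UMIs) and 299.8 in 166 sham cells (483 UMIs). Late erythroid cells had 106 and 129 CPM, with intervals below those of the early stage in each library. At the membrane-building stage between them the level was 176 CPM in 54 distraction cells (37 UMIs) and 309 in 57 sham cells (65 UMIs). The interval of this stage overlaps that of the early stage in both libraries. It also overlaps that of the late stage in the distraction library, and lies above it in the sham library.

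**Figure D3:**
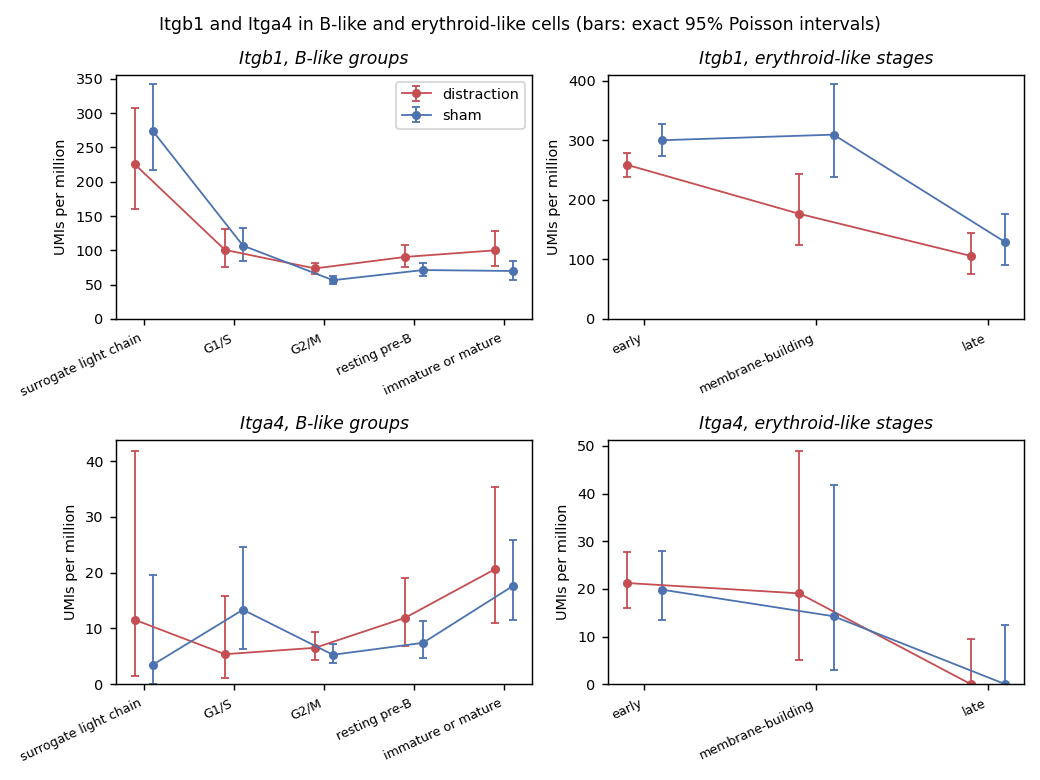
Itgb1 (top) and Itga4 (bottom) in CPM over B-like groups (left) and erythroid-like stages (right), distraction and sham, with exact 95% Poisson intervals as bars. Among B-like groups Itgb1 is highest with the surrogate light chain; among erythroid-like stages it is highest in early cells in distraction (259 CPM) and in membrane-building cells in sham (309 CPM); Itga4 is low in all of them and at 0 in late erythroid cells.

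Itga4, the VLA-4 alpha subunit, was low in all classes of at least 30 cells. The early erythroid cells held 53 UMIs in the distraction library (21.2 CPM, interval 15.9 to 27.8) and 32 in the sham library (19.9, 13.6 to 28.0). The more numerous B cells in G2/M held 30 and 41 UMIs, at 6.54 and 5.29 CPM. Membrane-building cells had 4 and 3 UMIs. Late erythroid cells had none in 108 and 83 cells, where a count of 0 allows up to 7.74 and 10.2 CPM. Immature or mature B cells had 20.6 and 17.7 CPM, dendritic-like cells 17.2 and 23.0 and eosinophil-like cells 25.5 and 25.5, and these intervals overlap with that of the early erythroid cells. In each of the last 3 neutrophil stages Itga4 had at most 1 UMI in distraction cells and 2 in sham cells. Of early erythroid cells with an Itga4 UMI, 32 of 35 (distraction) and 19 of 19 (sham) also held Itgb1, where 58.8% and 63.3% of all early erythroid cells did. Among resting pre-B cells it was 4 of 17 and 3 of 20, where 16.8% and 13.4% of all cells held Itgb1. Among early erythroid cells after thinning, Itgb1 was held by 5 of 11 Itga4-positive cells (distraction) and 1 of 2 (sham). Of all thinned early erythroid cells, 38.1% and 38.6% held Itgb1. These counts are too few for a comparison, and the part of cell depth in the unthinned shares was not tested. Among 23 distraction mast or basophil-like cells there were 14 Itga4 UMIs in 6 cells, and among 18 sham ones 9 UMIs, all in 1 cell.

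Itgb7 was read in 2 separate parts of the granulocyte course, in a minority of cells in the first. It was at 40.2 CPM in distraction progenitor-like cells (169 UMIs in 16.7% of cells) and 35.5 in sham ones (69 UMIs in 11.3%). Whether these cells differ in kind from the rest of the class was not tested. Defensin-rich cells had 2 UMIs in 168 distraction cells and 0 in 113 sham cells, the low point of the course. The level was 8.81 and 1.78 CPM in the Ngp and Lcn2 stage, 123 and 105 in the Mmp8 and Mmp9 stage and 159 and 142 in the Ccl6 and Il1r2 stage. The highest level among classes of at least 30 cells was in monocyte-like cells, at 271 CPM (872 UMIs, distraction) and 281 CPM (753 UMIs, sham), above the intervals of the other classes. Dendritic-like cells had 158 and 136 CPM. Mast or basophil-like cells held 61 Itgb7 UMIs in 18 of 23 distraction cells and 73 in 14 of 18 sham cells. Macrophage-like cells, although myeloid, had none in 26 and 17 cells, and no B-like group was above 11.1 CPM. Of monocyte-like cells with an Itga4 UMI, 15 of 18 (distraction) and 11 of 17 (sham) also held Itgb7, which 82.3% and 78.6% of all monocyte-like cells held.

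Among cells that build matrix, Itgb1 was higher than in any blood cell class of at least 30 cells. Fibroblast-like cells had 979.8 CPM in 60 distraction cells (748 UMIs, interval 911 to 1053) and 736 in 31 sham cells (278 UMIs, 652 to 827). A single sham cell held 24.8% of the sham UMIs, and without it the sham level was 623. The median cell held 9.09 (distraction) and 5.85 (sham) Itgb1 UMIs per 10000. Small vascular classes were rich in it too: 20 distraction endothelial-like cells held 273 UMIs and 16 sham ones 178, with at least 1 in each cell. The 7 mural-like cells of each library, the pericyte and muscle cells of vessel walls, held 93 and 47. Macrophage-like cells held 284 and 94, and megakaryocyte-like cells, the platelet precursors, 170 in 14 distraction cells and 116 in 12 sham cells.

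Itgb5 was read in few places: 200 of the 400 distraction UMIs of all deposited cells, and 49 of 155 sham UMIs, lay in fibroblast-like cells. The level was 262 CPM (distraction, interval 227 to 301) and 130 CPM (sham, 95.9 to 171). It was found in 80.0% of distraction fibroblast-like cells and 58.1% of sham ones, and after thinning in 50.9% and 28.6%. The median cell held 2.11 (distraction) and 0.790 (sham) Itgb5 UMIs per 10000, and the ranges, from 0 to 14.6 and from 0 to 19.5, overlap. Macrophage-like cells were another place, with 68 UMIs in 19 of 26 distraction cells and 50 in 11 of 17 sham cells. In the sham library these fewer cells thus held as many Itgb5 UMIs as the 31 fibroblast-like cells, so Itgb5 was not particular to fibroblast-like cells. In the blood cell classes of at least 30 cells there were at most 3 UMIs per library.

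**Figure D4:**
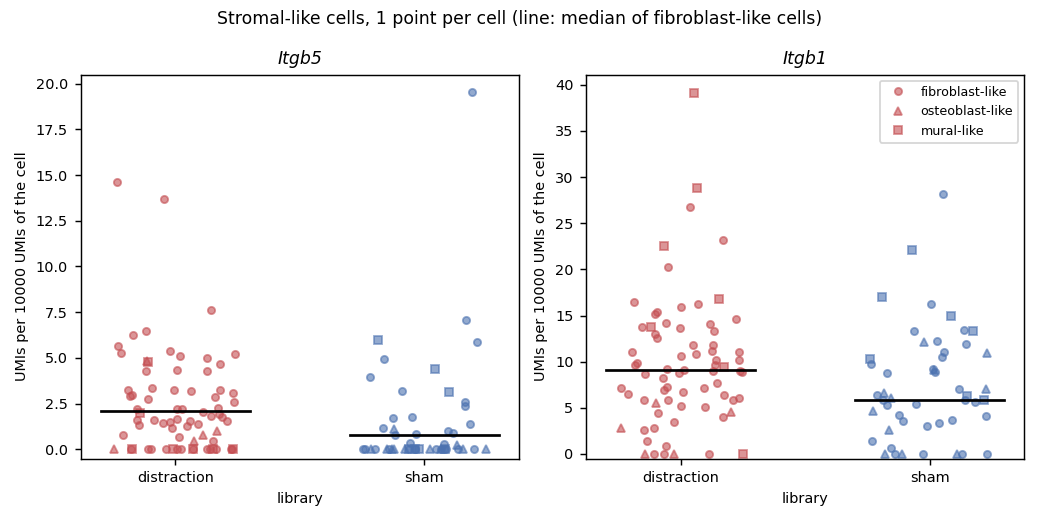
Itgb5 (left) and Itgb1 (right) in UMIs per 10000 UMIs of each stromal-like cell, distraction left of sham; 1 point is 1 cell, symbols give the class, and the line is the median of fibroblast-like cells. The Itgb5 medians are 2.11 and 0.790 per 10000 and the clouds overlap.

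Itgav was scarce everywhere, with 64 UMIs in the deposited distraction cells and 83 in the sham cells, and reached 20 CPM in no class of at least 30 cells. Monocyte-like cells had 10 and 19 UMIs, or 3.10 and 7.08 CPM. Fibroblast-like cells had 5 UMIs in 60 distraction cells and 0 in 31 sham cells, where 0 allows up to 7.94 CPM. All 6 Itgav-positive stromal-like cells of the distraction library held Itgb1 and 5 held Itgb5, and the 1 sham cell held both. Of all stromal-like cells 91.7% and 85.7% held Itgb1, and 75.0% and 46.9% held Itgb5. The monocyte-like ratio was 0.438 (interval 0.182 to 0.990), and the classes of at least 30 cells could not be ordered by Itgav at this depth.

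Differences between the libraries within classes were small for most members. Of 28 values at 50 or more CPM in at least 1 library, over 15 classes of at least 50 cells, 0 were higher by 1.5-fold or more in the distraction library and 2 were lower, 7.14% in all. Over all genes at 50 CPM in the same classes, 4.35% were higher and 6.54% lower, and the share past 1.5-fold was 10.9%. By class it was 6.47% in granulocyte progenitor-like, 7.1% in defensin-rich, 5.59% in Ngp and Lcn2 stage, 12.8% in Mmp8 and Mmp9 stage, 19.2% in Ccl6 and Il1r2 stage and 2.43% in monocyte-like cells. It was 24.7% in dendritic-like cells. Among B-like cells it was 9.73% in G1/S, 0.756% in G2/M, 2.36% in resting pre-B, 7.78% in immature or mature B and 18.9% in other B-like cells. Erythroid-like cells had 2.69% in the early, 34.8% in the membrane-building and 32.9% in the late stage, and stromal-like cells 41.7%. The members' share of 7.14% lies near this background. The median log2 ratio of all genes lay more than 0.1 from 0 in progenitor-like (-0.12), late erythroid (-0.13) and stromal-like cells (0.28).

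**Figure D5:**
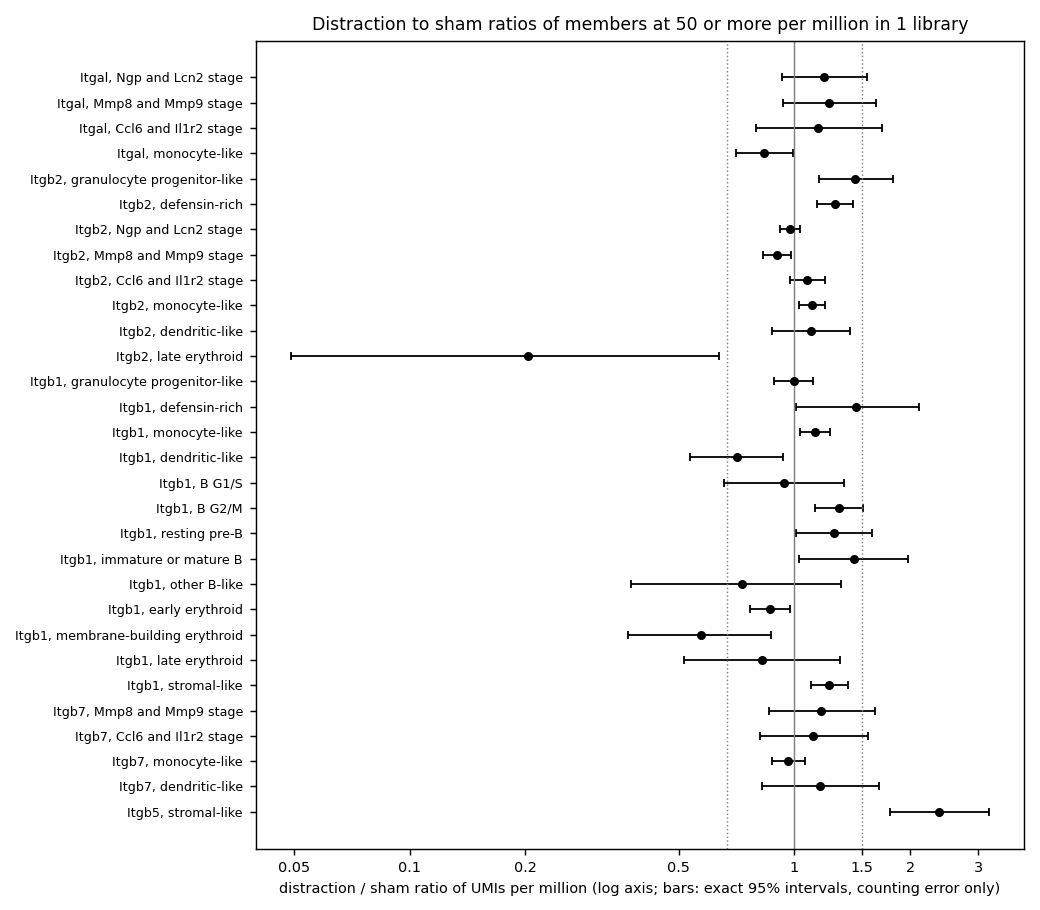
Distraction to sham ratio of the level (log axis) for each member and class at 50 or more CPM in 1 library, stromal-like cells included, with exact 95% intervals for counting error; dotted lines mark 1.5-fold. Past them lie Itgb2 in late erythroid, Itgb1 in membrane-building erythroid and Itgb5 in stromal-like cells.

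Of the 2 lower values, Itgb1 in membrane-building erythroid cells had a ratio of 0.571 (interval 0.370 to 0.867), in a class where 34.8% of all genes passed the fold, and stayed between 0.484 and 0.587 in every alternative that gave a value. The other was Itgb2 in late erythroid cells, with 4 (distraction) and 15 (sham) UMIs and a ratio of 0.203. Of those 15 UMIs, 80.0% were in 1 cell, and without the highest cell of each library the ratio was 0.757 from 3 and 3 UMIs. In the neutrophil stages from Ngp and Lcn2 onward, the ratios of Itgb2 were 0.974, 0.900 and 1.08 and those of Itgal 1.19, 1.23 and 1.15. Earlier in the course Itgb2 stood at 1.44 in progenitor-like cells (interval 1.15 to 1.80) and 1.27 in defensin-rich cells (1.15 to 1.42), short of the fold. Median depth in those 2 classes was higher in the distraction library, 32113 against 19847 and 14879 against 10588 UMIs, and its part was not tested. With clusters in place of marker gates the Itgb2 ratio in progenitor-like cells was 1.03. Itgb1 in progenitor-like cells had a ratio of 0.995, and 1.61 after thinning. In defensin-rich cells the Itgb1 ratio was 1.45 (133 against 41 UMIs, interval 1.01 to 2.10), short of the fold, and it was 1.79 after thinning and 1.53 without the highest cell of each library.

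Monocyte-like cells had ratios near 1 for all 4 members measured, 1.11 for Itgb2, 0.836 for Itgal, 1.13 for Itgb1 and 0.964 for Itgb7. Dendritic-like cells, many of which carried no more markers than the class requires, had an Itgb1 ratio of 0.708 (interval 0.536 to 0.933), which turned to 1.03 with clusters and to 1.38 after thinning. Among B-like cells Itgb1 was at 1.27 in resting pre-B cells (1.01 to 1.59), 1.43 in immature or mature B cells (1.03 to 1.98), 1.30 in G2/M (1.13 to 1.51), 0.942 in G1/S and 0.729 in the other B-like cells. Early erythroid cells had 0.862 (0.765 to 0.972), and late erythroid cells 0.822, which turned to 1.49 after thinning.

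In the 72 distraction and 49 sham stromal-like cells, Itgb5 had a ratio of 2.37 (210 against 60 UMIs, interval 1.77 to 3.21) and Itgb1 1.23 (880 against 483 UMIs, 1.10 to 1.38). Itgb5 is 1 of 2 members at 50 CPM there, in a class where 41.7% of all genes passed the fold and the median log2 ratio of all genes was 0.28. The ratio of Itgb5 was 1.51 when each cell was thinned to 2000 UMIs (45 against 19 UMIs, interval 0.866 to 2.73). The makeup of the class also differed between the libraries, with 60, 5 and 7 fibroblast-like, osteoblast-like and mural-like cells (distraction) and 31, 11 and 7 (sham); its part was not tested. The 5 distraction osteoblast-like cells held 8 Itgb5 UMIs and the 11 sham ones 5.

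Ligands of these receptors were read from a list of 26 genes, all in the tables. In stromal-like cells 13 of them were at 50 CPM or more. Of these, 6 were higher and 5 lower in the distraction library by 1.5-fold, in a class where 41.7% of all genes passed the fold. The median log2 ratio of the 13 was 0.52, against 0.28 over all genes there. Fibronectin (Fn1), bound by VLA-4 and by Itgav receptors, was at 1588 CPM in distraction cells and 414 in sham cells, a ratio of 3.83 (interval 3.35 to 4.40). Periostin (Postn), a matrix protein bound by Itgav receptors, was at 4029 and 1259.9 CPM, a ratio of 3.20 (2.96 to 3.46). All of its 3635 and 769 UMIs lay in fibroblast-like cells, where the level was 4762 and 2035 CPM. The laminin chain Lamb1 was at 153 and 34.4 CPM, a ratio of 4.45 (2.80 to 7.41). In fibroblast-like cells alone Lamb1 was at 147 and 42.3 CPM. The part of the class makeup, which differed between the libraries, in these ratios was not tested. Jam2, a junction protein, went the other way, at 38.8 and 205 CPM with a ratio of 0.189 (0.126 to 0.277). Other ligand genes of the list were also lower in distraction in fibroblast-like cells. Cyr61 was at 193 and 738 CPM there, Tnc at 550 and 929 and Ctgf at 148 and 278. Fbn1 (479 and 370) and Nov (126 and 119) were higher.

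In blood cells at most 4 ligand genes per class were at 50 CPM. Monocyte-like cells held Fn1 (2384 and 2275 CPM), Icam1 (321 and 326), osteopontin (Spp1, 266 and 297) and thrombospondin 1 (Thbs1, 134 and 147), and none of these 4 passed the fold. Icam4, the red cell ICAM, led in membrane-building erythroid cells, at 172 and 128 CPM. Vcam1, the VLA-4 ligand, was at 28.8 and 111 CPM in fibroblast-like cells, from 22 and 42 UMIs. Madcam1, the ligand of the Itga4 and Itgb7 pair, was found in both libraries in no class of at least 30 cells. Spp1 in dendritic-like cells was at 63.0 and 357 CPM, a ratio of 0.177 (0.117 to 0.258). Fn1 in the Mmp8 and Mmp9 stage was at 116 and 16.4 CPM, from 132 and 9 UMIs, a ratio of 7.06 (3.61 to 15.8). Fn1 is also a monocyte marker here, and neutrophil and monocyte doublets were not removed. Their part was not tested.

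Of 34 genes for integrin activators and adaptors, 33 were in the tables. Per class between 4 and 19 were at 50 CPM. At most 2 of them were higher by 1.5-fold in a class, and at most 2 lower. Stromal-like cells had 2 of each among 11. The share of all genes past the fold ran from 0.756% in B cells in G2/M to 41.7% in stromal-like cells. Tln1 led in the Mmp8 and Mmp9 stage, at 539 and 554 CPM (ratio 0.973), the same stage as Itgb2. Its ratio was 1.73 (1.40 to 2.14) in defensin-rich cells and 1.46 (1.30 to 1.64) in B cells in G2/M, and 0.533 (0.418 to 0.680) in stromal-like cells. Vinculin (Vcl), which links talin to actin, had a ratio of 1.58 (1.16 to 2.19) in defensin-rich cells and 1.65 (1.22 to 2.25) in stromal-like cells. Its ratio was 0.610 (0.434 to 0.860) in the Mmp8 and Mmp9 stage. In fibroblast-like cells alone Vcl was at 182 and 146 CPM, distraction and sham. Fermt3 was at 268 and 325 CPM in the Mmp8 and Mmp9 stage, 254 and 281 in monocyte-like cells and 339 and 383 in eosinophil-like cells. Fermt2, the kindlin of adherent cells, led in fibroblast-like cells at 411 and 304 CPM and was also at 155 and 190 in resting pre-B cells.

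The genes with the pattern most like each member were taken by Pearson correlation of log2(level + 10) over 30 points, 15 classes in each of 2 libraries. These points share libraries and lineages, so the values are a description. Itgb2 was closest to Tyrobp (r = 0.973), an adaptor of myeloid receptors, MGC105649 (0.964) and the protease Napsa (0.964). Among the genes closest to Itgal were the bacterial sensor Nod2 (0.949) and properdin (Cfp, 0.947). Itgb7 was closest to Rbm47 (0.975), Rarg (0.971) and the tumour necrosis factor receptor Tnfrsf1b (0.955), and Itgb1 to Anxa7 (0.938), Nars (0.874) and Afg3l2 (0.857). Itga4, Itgav and Itgb5 reached 50 CPM in none of these points, and their nearest genes are not given. Between members the highest value was 0.866 for Itgal with Itgb2, and Itgb1 against Itgb2 had -0.53.

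Of the 18 other integrin genes, 4 were at 50 CPM or more in both libraries in a class of at least 30 cells. Itgax, the alpha subunit of another beta 2 integrin, led in the Ccl6 and Il1r2 stage at 698 and 712 CPM. Itgad, also a partner of Itgb2, was at 70.9 and 75.5 CPM in the Ngp and Lcn2 stage. These intervals overlap those of the Mmp8 and Mmp9 stage (56.9 and 58.2) and of dendritic-like cells (66.8 and 43.7) in each library. Itga5, which pairs with Itgb1 as a fibronectin receptor, was at 114 and 96.3 CPM in the Ccl6 and Il1r2 stage, 103 and 99.9 in monocyte-like cells and 109 and 68.8 in fibroblast-like cells, and the intervals of these 3 classes overlap in each library. Itga6, which pairs with Itgb1 as a laminin receptor, led in B cells with the surrogate light chain at 127 and 158 CPM. This is the B-like group where Itgb1 also led. The Itga6 intervals there overlap those of B cells in G1/S in each library, and those of G2/M in the distraction library. Among the small classes, endothelial-like cells held 108 and 51 Itga5 UMIs and megakaryocyte-like cells 246 and 185 UMIs of Itga2b, the platelet integrin subunit.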

How the data were processed

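Per the file headers, the deposited values are raw UMI counts per cell and gene from the BD WTA Rhapsody Analysis Pipeline 1.5.1; the submitters' processing notes also name Rnor_6.0 and Seurat 3.6. From these counts, cells with at least 500 UMIs, 200 genes and under 25% mitochondrial UMIs were kept. A cell joined a class with at least 3 markers on (2 for eosinophil-like cells), at 1 UMI per 10000 or, for 15 markers found in most classes as free RNA, at 5 UMIs and 5 per 10000. Cells with markers of a second lineage family, 78 distraction and 172 sham, and cells in no class, 299 and 391, were left out. This also served in place of a doublet caller. Myeloid classes counted as 1 family and stromal classes as another, so doublets within a family could stay in. No integrin entered a class rule. The scoring rule, the thresholds for free RNA and some marker lists (S100a8, S100a9, Col1a1 and Cd74 dropped, among others) were set after the data, integrin levels included, had been seen, and the members and gene lists were chosen with earlier results of these data known. Of 1902 neutrophil-like and 725 erythroid-like cells, 217 and 114 lay within a score gap of 0.05 of a stage boundary.

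Levels are summed UMIs per 1e+06 UMIs (CPM) with exact Poisson intervals, ratios have exact conditional binomial intervals, and shares exact Clopper-Pearson ones; a count of 0 is read as a limit of 3 counts per library. With 1 library per group there is no test. Changes are described by ratio, past 1.5-fold for genes at 50 CPM in 1 library. Named genes were members at 20 CPM, up to 4 list genes per class with the largest ratio, Tln1 and Fermt3, other integrins at 50 CPM in both libraries, and the 3 genes most like each member. Some were added after their values were seen. These were Vcam1, Fermt2, Cyr61, Tnc, Ctgf, Fbn1 and Nov in fibroblast-like cells and the integrins of the smallest classes. The count steps were checked on simulated data. Python 3.11.15, numpy 2.4.6, scipy 1.17.1, pandas 2.3.3, scanpy 1.11.5 and leidenalg 0.10.2 were used. UMI intervals and limits cover counting error only. Of the genes with a pattern like a member's, 1 is not reported here.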

Additional observations from a re-analysis of the deposited data

How the results depend on the processing

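No paired analysis was possible because each group has 1 library. Across 9 alternative settings, 30 ratios gave 264 values, of which 12 left the counting interval of the value reported and none of those past 1.5-fold changed direction. Of the 3 ratios past 1.5-fold, 2 stayed past it in each alternative that could be computed; the third, Itgb2 in late erythroid cells, gave 0.757 without the highest cell. The share of integrin values higher by 1.5-fold in distraction, 0 as reported, was 3.57% with every deposited cell kept, 4% with 1 more marker required, 3.33% without mitochondrial, ribosomal, haemoglobin and immunoglobulin genes in the scaling, and 11.5% with cells thinned to 2000 UMIs. The share lower, 7.14% as reported, was 3.57% with every deposited cell kept and 3.70% with clusters. It was 12.5% with cells of a second lineage family kept and 3.85% after thinning. The cause was not tested. Over all genes as reported, 4.35% were higher and 6.54% lower. All-gene shares by direction under the alternatives are not given here. The integrin shares under them therefore stand without a background. The 3 integrin values at 50 CPM that were higher by 1.5-fold after thinning were Itgb1 in progenitor-like cells (1.61), Itgal in the Ngp and Lcn2 stage (1.59) and Itgb1 in B cells in G2/M (1.54). Leaving out the barcodes found in both libraries, an alternative chosen after seeing the data, left both shares at 0 and 7.14%. The share of all genes past 1.5-fold at 20 CPM ranged from 1.31% to 52.1% over the classes, against 0.756% to 34.8% at 50. With clusters, membrane-building erythroid cells gave no value, and with 1 more marker dendritic-like cells gave none. Of 126 levels recomputed, 108 stayed within their intervals. Cells with both Itga4 and Itgb1 in the early erythroid class made up 12.5% and 11.4% of distraction and sham cells, and 2.16% and 0.714% after thinning, which leaves fewer UMIs per cell. Members below 20 CPM, Itgav above all, rest on too few UMIs for a comparison at this depth.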

Other observations

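Clusters built without integrin genes left 5 groups of cells unnamed. In 1 of them, with Ccrl2, Gjb2, Bcl2a1, Nr4a1, Pmp22 and Icam1 as its leading genes, 23 distraction cells and 7 sham cells held Itgb2 at 1876 and 2377 CPM (142 and 45 UMIs) and Itgal at 700.3 and 1162 CPM (53 and 22 UMIs, in 15 and 6 cells). Itgb1 stood at 846 and 1004 CPM there (64 and 19 UMIs), and Itga4 at 119 and 158 CPM (9 and 3 UMIs, in 7 and 3 cells). These Itgal values are above those of all gated classes of at least 30 cells, and 1 sham cell held 45.5% of the sham Itgal UMIs. Another unnamed group, led by the protease genes Mcpt1l1 and Mcpt1, had Itgb1 at 371 and 312 CPM in 95 distraction and 78 sham cells, with Itgb2 at 29.3 and 47.9. A further one, led by Fcnb, F13a1, Padi2, Cxcl10, Hopx and Gm2a, had Itgb7 at 180 and 144 CPM, distraction and sham. There 31 of 42 distraction cells and 29 of 78 sham cells held it (211 and 118 UMIs). How far this group accounts for the Itgb7 reading in progenitor-like cells was not tested. A group of shallow cells led by small RNA genes, RF00100 first, with 34 distraction and 16 sham cells at median depths of 922 and 1210.5 UMIs, had Itga4 at 480 CPM (17 UMIs in 8 cells, interval 280 to 769) and 147 CPM (4 UMIs in 4 cells, 40.02 to 376). The Itga4 values of this group and of the group led by Ccrl2 are above those of all gated classes of at least 30 cells. In the distraction library their intervals lie above that of eosinophil-like cells (10.3 to 52.6). In the sham library, from 4 UMIs in 16 cells and 3 UMIs in 7 cells, they overlap it (8.28 to 59.5). The order is therefore not resolved in the sham library.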
